A study of Mus musculus with 9 samples.

Results

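The 10 genes described here encode sensors of double-stranded or foreign RNA, proteins that assist or relay the signal of some sensors, and an enzyme that limits sensor activation. These are Ddx58, Ifih1, Dhx58, Tlr3, Zbp1, Eif2ak2, Trim25, Mavs, Tbk1 and Adar. They were chosen by gene name, and all 10 were found among the 54532 genes of the deposited table and passed the filter on low counts that left 13326 genes. RNA was sequenced from RENCA, a mouse renal carcinoma cell line, in 3 forms with 3 libraries each. Empty-vector cells, labelled WT, served as the reference. Knockout cells, labelled NDUFA4L2 -/-, were made by CRISPR with a single guide, raised as single-cell colonies and screened by qPCR; the number of clones sequenced is not known here. Rescue cells, labelled NDUFA4L2 +/+, received Ndufa4l2 from a lentivirus under puromycin selection, so they differ from knockout cells by the virus and the drug as well as by the gene. All 3 labelled knockout libraries were used, although the description of the series mentions a smaller number. Nothing in the labels ties the replicates to separate cultures, so each p-value reflects library-to-library spread that could be purely technical.

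Cells recognise viral or misplaced RNA through a small set of proteins. Ddx58 (RIG-I) and Ifih1 (MDA5) are cytosolic helicases that bind double-stranded RNA and pass the signal to Mavs, an adaptor anchored in the outer mitochondrial membrane. Mavs in turn engages the kinase Tbk1, which activates transcription factors of the interferon genes. Most of these sensors are themselves induced by interferon, so their mRNA level also reads the interferon state of a cell. Mitochondria transcribe both strands of their genome and can be a source of double-stranded RNA, which is the reason for setting the sensors beside the level of mitochondrially encoded RNA.

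For 8 of the 10 genes the RefSeq table (build GRCm38.p6) gave promoter windows of 300 bases, reaching from 250 bases before a start site to 50 after it; Dhx58 and Zbp1 had none. The windows were searched on both strands for GAAA followed by any 2 bases and GAAA, a core of the element through which type I interferon acts, and for TTCNNNGAA, a core of the element bound by STAT dimers. The motifs can share bases, but no matches of the members did. The first motif was present in Ddx58, Ifih1 and Eif2ak2, that is in 3 of 8 genes, and in 3.44% of all 32851 windows of this length. Each of these matches begins just after the annotated start site, at base 3 in Ddx58, base 33 in Ifih1 and base 19 in Eif2ak2 (the start site being base 1). All lie in an exon, and GENCODE annotates the stretch as untranslated in Ddx58 and Eif2ak2. They are shown, with the match in capitals (in Ddx58 it reads on the opposite strand), because these 3 genes are the members in which it was found. Being low in rescue did not set them apart, since Tlr3, Trim25 and Adar, without a match, and Dhx58 and Zbp1, without a window, were also lower there. The sequences run 5′ to 3′ along the gene, on the minus strand of chr4:40239804-40239833, chr2:62646206-62646233 and chr17:78882535-78882564.
Ddx58: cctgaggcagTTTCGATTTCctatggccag
Ifih1: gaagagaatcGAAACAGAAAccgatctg
Eif2ak2: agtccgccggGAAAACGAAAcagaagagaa
The second motif occurred in Eif2ak2, 178 bases before the start, and in 1 of the 3 windows of Adar, against 8.3% of all windows. Neither set of letters was found in the windows of Tlr3, Trim25, Mavs and Tbk1. A match in letters is a description and was not tied to binding here.

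Total counts ran from 13106531 to 26643877 per library. The mRNA of the targeted gene, Ndufa4l2, stood at 0.520 ± 0.129 CPM (counts scaled to a common library size; SD, n = 3) for empty vector, 0.453 ± 0.204 for knockout and 2.48 ± 0.239 for rescue. Rescue exceeded knockout by 2.57 ± 0.34 on the log2 scale (SE; edgeR adjusted p = 2.2e-06), while between knockout and empty vector no difference was detectable at this depth (edgeR adjusted p = 0.47), so this mRNA does not check the knockout label. Renal epithelial markers summed to between 1009 and 1765 CPM in all libraries, although Epcam had no count in empty vector or knockout and Krt19 none in knockout or rescue. That sum hides opposite moves. Of 9 tested, 7 were higher and 2 lower in knockout than in empty vector, against 29.5% and 31.1% of all tested genes. Cdh1 had 11.9 ± 3.045, 99.6 ± 8.48 and 2.46 ± 0.449 CPM for empty vector, knockout and rescue, and Pax8 236.6 ± 4.185, 98.65 ± 6.855 and 165.3 ± 13.4. Of 18 leukocyte markers 4 had enough counts to be tested, and their summed level moved with several sensors: 78.35 to 84.3 CPM in empty vector, 212 to 228 in knockout and 39.0 to 44.6 in rescue. Most of that sum was the lysosomal protein Cd68, whereas Ptprc, found across leukocytes, and Tyrobp never exceeded 2 counts. All 4 tested leukocyte markers were higher in knockout than in empty vector and lower in rescue than in knockout, against 29.5% and 27.3% of all tested genes. Lyz2 had 0.949 ± 0.193, 7.49 ± 1.00 and 1.15 ± 0.275 CPM for empty vector, knockout and rescue, and Csf1r 1.08 ± 0.345, 3.87 ± 0.516 and 1.39 ± 0.179. Endothelial and fibroblast markers summed to 26.9 to 34.05, 61.3 to 72.3 and 28.6 to 30.8 CPM, with Kdr, Emcn and Lum at 0 throughout. Only 3 of these 12 were tested, and most of the sum was Pdgfrb (27.8 ± 3.205, 59.3 ± 5.44 and 24.8 ± 0.751 CPM). The part of either marker set in the results was not tested. In such bulk samples, fewer cells of a type and less RNA per cell cannot be told apart.

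Rescue cells held the least RNA of 8 of the 10 genes, and the deficit was against both other lines. Against knockout, 8 genes were lower in rescue and 1, Tbk1, was higher, so that 9 of 10 were called; among all tested genes 56.8% were called, 27.3% lower and 29.5% higher (edgeR, adjusted p under 0.05). Against empty vector, 8 were lower and 1, Mavs, was higher, where 47.5% of all genes were called, 25.1% lower and 22.4% higher. These comparisons share the rescue libraries and are not independent of each other. The median log2 change of the 10 genes was -1.23 against knockout and -0.97 against empty vector, and that of all tested genes was 0.03 and -0.02. Knockout against empty vector gave a different picture, with 4 genes higher, 2 lower and 4 not passing, so that 6 of 10 were called where 60.6% of all genes were. The background in that comparison was 29.5% higher and 31.1% lower (48.7% of calls higher, 34.4% with library totals as the only scale; 51.9% and 69.6% in rescue against knockout), and the median of the 10 genes was 0.13 (0.06 without empty-vector replicate 1). By overlap of libraries, 8 genes lay wholly below and 2 wholly above knockout in rescue, against 30.7% and 34.6% of all genes. Rescue lay wholly below empty vector for 8 and wholly above for 1, against 28.6% and 26.5%, and knockout lay wholly above empty vector for 4 and wholly below for none, against 30.8% and 32.8%.

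**Figure D1:**
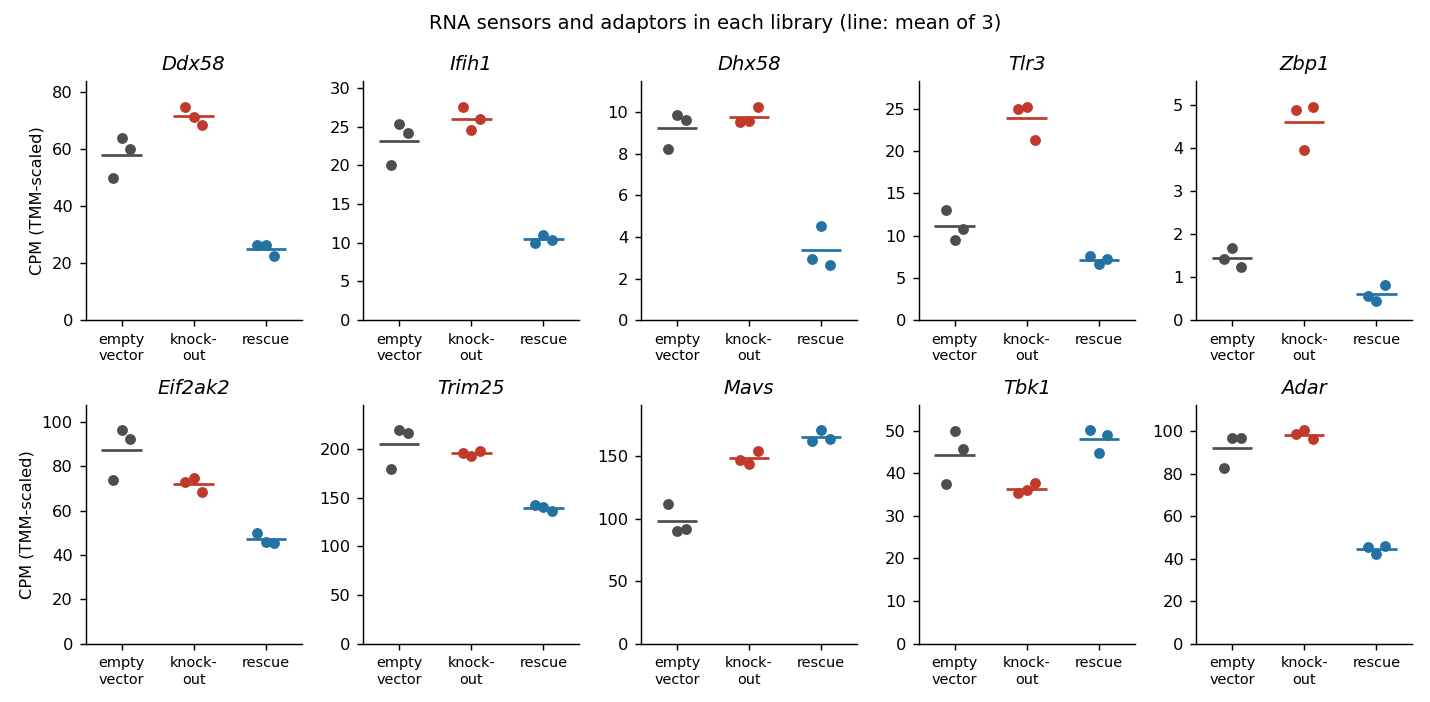
Level of each gene in every library, in CPM on axes that start at 0 (points: libraries; line: mean of the 3 libraries of a group). The 3 rescue libraries lie below all others in 8 panels, while Mavs is lowest in empty vector and Tbk1 in knockout for 2 of its libraries.

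Among the helicases, Ddx58 stood at 49.7, 63.7 and 59.9 CPM for empty vector, 74.8, 71.1 and 68.4 for knockout and 26.2, 26.45 and 22.3 for rescue. No libraries overlapped between any of the groups, and the lowest were the rescue libraries. Ddx58 in rescue fell by 1.51 ± 0.09 on the log2 scale relative to knockout (SE; edgeR adjusted p = 9.2e-11), which is a 2.85-fold lower level, and by 1.20 ± 0.09 against empty vector (edgeR adjusted p = 7e-09). Its rise in knockout was small, 0.31 ± 0.08 (edgeR adjusted p = 0.0042), and did not pass with library totals as the only scale (0.15, edgeR adjusted p = 0.17).

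Ifih1, the sensor of long double-stranded RNA, had 20.1, 25.3 and 24.2 CPM for empty vector, 27.6, 24.5 and 25.95 for knockout and 10.0, 10.95 and 10.4 for rescue. The first 2 groups overlapped and rescue lay well below both. It fell in rescue by 1.32 ± 0.10 log2 units against knockout (edgeR adjusted p = 1.4e-09) and by 1.15 ± 0.10 against empty vector (edgeR adjusted p = 3e-08), and the change of 0.17 ± 0.09 in knockout did not pass (edgeR adjusted p = 0.12). Dhx58 (LGP2) is another helicase of this family, which lacks the signalling domain of the others and modulates their output. It was at 8.26, 9.90 and 9.63 CPM for empty vector, 9.54, 9.58 and 10.3 for knockout and 2.96, 4.55 and 2.64 for rescue. Again only rescue stood apart, at -1.54 ± 0.17 against knockout (edgeR adjusted p = 1.6e-07) and -1.46 ± 0.16 against empty vector (edgeR adjusted p = 7.6e-07), and the knockout value was 0.09 ± 0.15 (edgeR adjusted p = 0.62).

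Tlr3, which senses double-stranded RNA in endosomes, and Zbp1, which binds the left-handed Z form of nucleic acids and can start necroptosis, were the members called and at least doubled in knockout; Ddx58 and Mavs rose there by less. Tlr3 had 13.05, 9.52 and 10.8 CPM for empty vector, 25.05, 25.3 and 21.3 for knockout and 7.555, 6.63 and 7.23 for rescue. It rose 2.12-fold in knockout (log2 change 1.08 ± 0.11; edgeR adjusted p = 1.1e-07), more than 92.8% of all tested genes did, and fell in rescue to 3.31-fold below knockout (-1.73 ± 0.12; edgeR adjusted p = 3.8e-10). Rescue also lay below empty vector, by a smaller amount (-0.64 ± 0.12; edgeR adjusted p = 0.00029). Zbp1 rested on few reads, with 32, 26 and 31 counts for empty vector, 77, 48 and 118 for knockout and 16, 8 and 13 for rescue. In CPM these were 1.42, 1.67 and 1.24, then 4.895, 3.965 and 4.97, then 0.570, 0.438 and 0.818, with no overlap between groups. Zbp1 rose 3.25-fold in knockout (1.70 ± 0.23; edgeR adjusted p = 2.4e-06) and was 7.71-fold lower in rescue than in knockout (-2.95 ± 0.26; edgeR adjusted p = 1.1e-08), while rescue against empty vector stood at -1.25 ± 0.29 (edgeR adjusted p = 0.0017).

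Eif2ak2 (PKR) is a kinase that, once bound to double-stranded RNA, halts translation by phosphorylating the initiation factor Eif2s1. Its levels were 73.95, 96.2 and 92.3 CPM for empty vector, 72.9, 74.8 and 68.3 for knockout and 49.8, 46.0 and 45.5 for rescue. It was the one sensor that fell in knockout (-0.28 ± 0.08; edgeR adjusted p = 0.0068), although the libraries of those groups overlapped. In rescue it fell by 0.61 ± 0.08 against knockout (edgeR adjusted p = 6.9e-06) and by 0.89 ± 0.08 against empty vector (edgeR adjusted p = 1.5e-07). Adar, which edits adenosines in double-stranded RNA and so keeps the cell's own RNA from being sensed, had the same calls as Ifih1 in all 3 comparisons. It had 82.9, 96.6 and 96.6 CPM for empty vector, 98.5, 100.4 and 96.2 for knockout and 45.6, 42.2 and 46.2 for rescue, where it was 2.20-fold below knockout (-1.14 ± 0.07; edgeR adjusted p = 6.1e-11) and 2.06-fold below empty vector (-1.04 ± 0.07; edgeR adjusted p = 8e-10). Knockout and empty vector overlapped (0.10 ± 0.07; edgeR adjusted p = 0.23).

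The next genes act after sensing. Trim25, a ubiquitin ligase that assists Ddx58, had 179.4, 219.1 and 216.3 CPM for empty vector, 195.4, 192.9 and 197.7 for knockout and 142.3, 140.5 and 136.4 for rescue. The decrease in rescue was the mildest of the 8, -0.48 ± 0.07 against knockout (edgeR adjusted p = 7.9e-06) and -0.55 ± 0.07 against empty vector (edgeR adjusted p = 3.1e-06). Its value in knockout, -0.07 ± 0.07, did not pass (edgeR adjusted p = 0.41), but passed without empty-vector replicate 1 (-0.14, edgeR adjusted p = 0.028) and with library totals alone (-0.23, edgeR adjusted p = 0.012).

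Mavs had 112.2, 90.0 and 91.5 CPM for empty vector, 147.0, 143.7 and 154.3 for knockout and 162.5, 170.8 and 164.2 for rescue. Every knockout and rescue library exceeded every empty-vector library. Mavs rose 1.51-fold in knockout (0.60 ± 0.07; edgeR adjusted p = 9.5e-07) and 1.69-fold in rescue against empty vector (0.76 ± 0.07; edgeR adjusted p = 1.3e-07). Rescue lay slightly above knockout without overlap, and that step was borderline (0.16 ± 0.07; edgeR adjusted p = 0.07); in the authors' deposited table it passed, with a log2 ratio of knockout to rescue of -0.15 and an adjusted p of 0.025. Tbk1 was at 37.4, 50.0 and 45.8 CPM for empty vector, 35.3, 36.0 and 37.7 for knockout and 50.0, 44.8 and 48.9 for rescue. It fell in knockout by 0.28 ± 0.09 (edgeR adjusted p = 0.01), with one empty-vector library inside the knockout range, rose in rescue against knockout by 0.40 ± 0.09 (edgeR adjusted p = 0.00076), and did not differ detectably between rescue and empty vector (0.12 ± 0.09; edgeR adjusted p = 0.28).

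**Figure D2:**
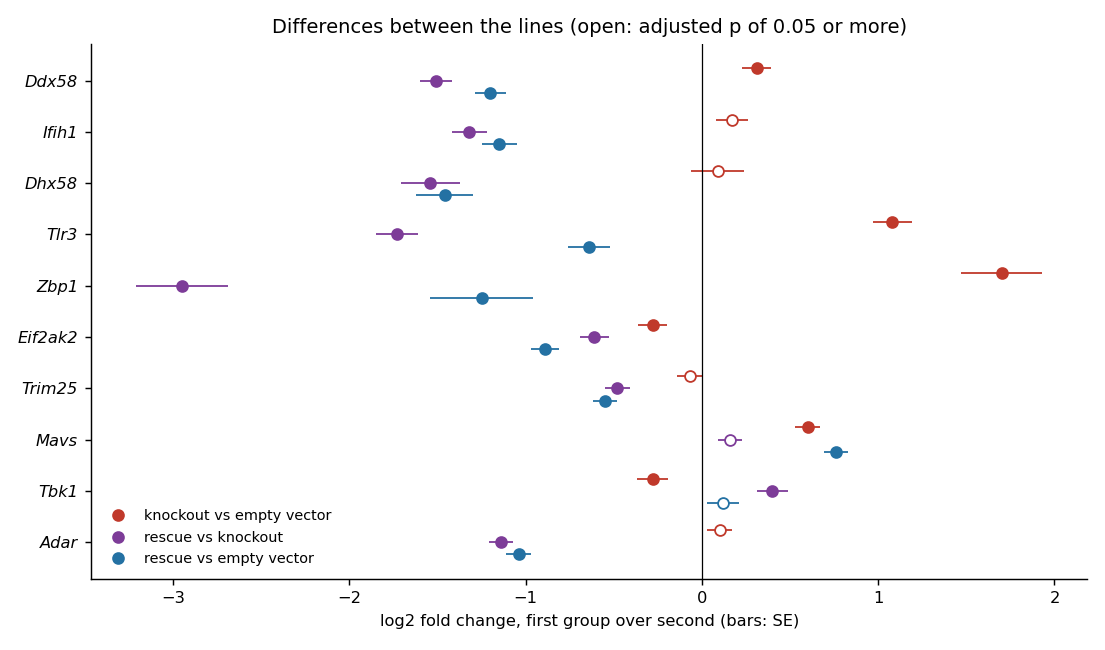
Log2 fold change of each gene in the 3 comparisons, first group over second, with the SE as bars (filled: edgeR adjusted p under 0.05; open: not). Rescue values lie left of 0 for 8 genes in both rescue comparisons, from -0.48 for Trim25 to -2.95 for Zbp1, while knockout values against empty vector scatter between -0.28 and 1.70.

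The size of the decreases can be read against all genes. In rescue against knockout 6 of the 10 genes were called and at least halved, which 8.4% of all tested genes were, and in rescue against empty vector 5 were, against 3.29%. At least a doubling was called in knockout for Tlr3 and Zbp1, against 8.13% of genes. Only 1.36% of genes had a lower log2 change than Zbp1 in rescue against knockout, and only 1.61% a lower one than Dhx58 in rescue against empty vector. At the other end, 95.4% of genes lay below Mavs in rescue against empty vector. The genes were chosen with results of these data known, so these shares describe the members and test nothing.

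As a share of counts, mitochondrially encoded RNA had its highest group mean in knockout and its lowest in rescue. The group means of Ddx58, Ifih1, Dhx58, Tlr3, Zbp1 and Adar had that order, but those of Eif2ak2, Trim25, Mavs and Tbk1 did not. The 37 genes of the mitochondrial genome took 3.04%, 2.16% and 3.17% of counts for empty vector, 7.93%, 7.30% and 5.79% for knockout and 2.65%, 2.52% and 2.24% for rescue. Knockout stood 2.51-fold above empty vector without overlap (7.01% ± 1.10 against 2.79% ± 0.550; SD, n = 3; exact permutation p = 0.1, the smallest this design allows, two-sided), and rescue overlapped with empty vector (2.47% ± 0.212; exact permutation p = 0.4). mt-Nd6, the protein-coding gene of the light strand, had the same order of group means, with 720.8 ± 184.5 CPM for empty vector, 1977 ± 302.4 for knockout and 664.1 ± 84.6 for rescue, a rise of 1.46 ± 0.21 log2 units in knockout (edgeR adjusted p = 5e-04). The strand setting of the counting is not known here, so the counts of mt-Nd6 may hold transcripts of the other strand. The libraries were also poly(A)-selected, which disfavours RNA without such a tail, and double-stranded RNA itself was not measured. Of the 13 mitochondrial mRNAs, 7 were higher in knockout and none lower, and 9 were lower in rescue against knockout and none higher. The 6 not called in knockout were mt-Atp6, mt-Atp8, mt-Co2, mt-Co3, mt-Nd3 and mt-Nd4l. Their group means reached at most 175.2 CPM, while those of the other 7 were at least 664.1. Some varied widely between libraries (mt-Nd3 13.8 ± 15.2 CPM in empty vector), so a missing call need not mean no change. In rescue against empty vector 2, mt-Co1 and mt-Co2, were lower and 11 were not called (median -0.12). Among the latter, mt-Nd1 in rescue lay wholly above empty vector (2502 ± 206.5 against 1898 ± 421.7 CPM, log2 change 0.40 ± 0.16, edgeR adjusted p = 0.06). The mean of mt-Nd2 was also higher in rescue (3576 against 3011 CPM). Such a share also varies with RNA quality, whose part was not tested.

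Set side by side, mitochondrial RNA differed most between rescue and knockout. So did Ddx58, Ifih1, Dhx58, Tlr3, Zbp1 and Adar, in the same direction, and Tbk1, in the opposite one. By contrast, Eif2ak2, Trim25 and Mavs differed most between rescue and empty vector. In rescue against knockout the mitochondrial share was 2.84-fold lower (exact permutation p = 0.1, the smallest this design allows). That share is of all counts, whereas the folds of members rest on scaled library sizes, so these sizes are not on one scale. With scaled library sizes, mitochondrial genes had 61700 to 87290 CPM in knockout and 21320 to 25170 in rescue. In that comparison the sizes of the members' changes varied widely. Zbp1 was 7.71-fold lower in rescue, Tlr3 3.31-fold, Dhx58 2.917-fold, Ddx58 2.85-fold, Ifih1 2.499-fold and Adar 2.20-fold. Eif2ak2 was 1.525-fold and Trim25 1.398-fold lower, Tbk1 was 1.318-fold higher, and Mavs was not called. Sizes also differed in the other comparisons. From empty vector to knockout, with the mitochondrial share 2.51-fold higher, Ifih1 was 1.13-fold higher, Ddx58 1.24-fold and Adar 1.07-fold. Between empty vector and rescue, whose mitochondrial shares overlapped, Ifih1 was 2.22-fold, Ddx58 2.30-fold and Dhx58 2.74-fold lower in rescue. Tlr3 and Zbp1 rose in knockout by 2.12-fold and 3.25-fold. The fits without the mitochondrial genes gave the same calls for all 10 members in all 3 comparisons. Within groups the order varied: empty-vector replicate 2 had the lowest mitochondrial share of its group and the highest Ddx58, whereas knockout replicate 1 had the highest of both. Since the 9 libraries form separate clusters, no correlation across them was computed for this relation.

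**Figure D3:**
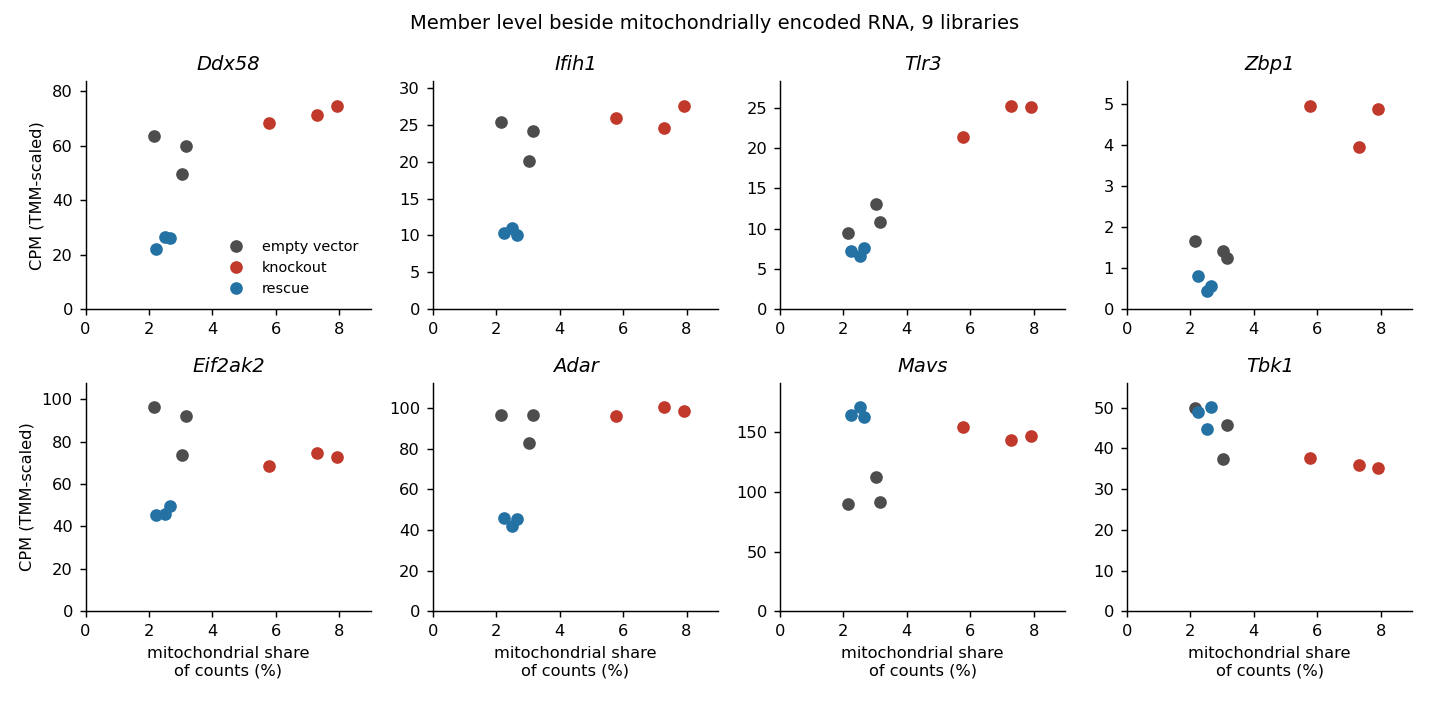
Share of counts from the mitochondrial genome (x axis, percent) against the level of 8 members (y axis, CPM from 0), one point per library. Empty-vector and rescue libraries share the range of 2.16% to 3.17% on the x axis. On the y axis they separate for Ddx58, Ifih1, Tlr3, Zbp1, Eif2ak2, Adar and Mavs, but not for Tbk1. Knockout libraries lie at 5.79% to 7.93% on the x axis.

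Levels of different genes were compared per length, in the FPKM (fragments scaled to transcript length and library size) that the authors deposited. In empty vector the order was Trim25 (35.2 ± 3.47; SD, n = 3), Mavs (29.0 ± 3.97), Eif2ak2 (16.9 ± 2.13), Tbk1 (11.2 ± 1.51), Adar (11.2 ± 0.858), Ddx58 (8.095 ± 0.937), Ifih1 (2.81 ± 0.308), Dhx58 (2.80 ± 0.239), Tlr3 (2.12 ± 0.362) and Zbp1 (0.405 ± 0.0586). Neighbours whose libraries overlapped were Trim25 and Mavs, Tbk1 and Adar, and Ifih1 and Dhx58. In rescue Mavs led with 49.2 ± 1.38 FPKM, above Trim25 at 24.1 ± 0.507 and Tbk1 at 12.2 ± 0.688, and the 3 lowly expressed receptors Tlr3 (1.36 ± 0.0879), Ifih1 (1.27 ± 0.0600) and Dhx58 (1.03 ± 0.311) overlapped. In knockout Mavs also led, at 44.3 ± 1.53, and Tlr3 (4.59 ± 0.437) lay above Ifih1 (3.19 ± 0.192) and Dhx58 (2.995 ± 0.120), whereas in empty vector its mean lay below both and its libraries overlapped with those of Ifih1. Ifih1 and Dhx58 overlapped in knockout.

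**Figure D4:**
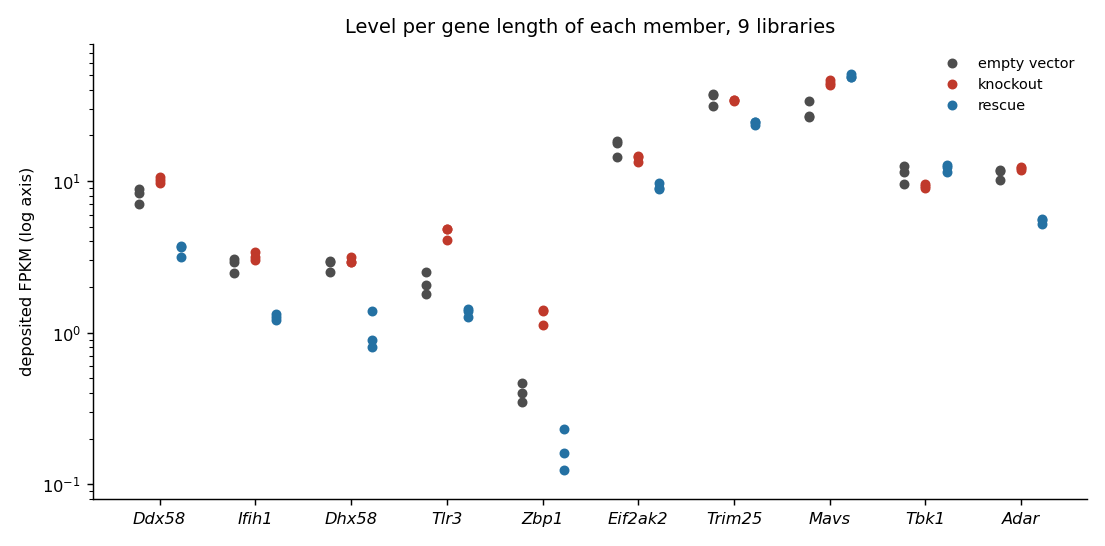
Deposited FPKM of each gene on a log axis, one point per library. Trim25 and Mavs hold the top of the scale in each line, and Zbp1 the bottom, from 0.124 FPKM in a rescue library to 1.40 in a knockout library.

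Exons of 4 members share bases with genes on the opposite strand in GENCODE, which matters because the strand setting of the counts is unknown: Adar shares 1365 bases with Chrnb2, Tlr3 381 with Gm45542, Dhx58 141 with Dhx58os, and Eif2ak2 174 with Gm26637. These partners had at most 40, 0, 5 and 16 counts in any library. Eif2ak2 also shares 47 bases with n-R5s29, which had at most 5 counts. In the table Ddx58 lies on chromosome 4 (40203773 to 40239828, minus strand, mm10), Ifih1 on chromosome 2 (62595798 to 62646255, minus), Mavs on chromosome 2 (131234063 to 131248025, plus), Zbp1 on chromosome 2 (173206612 to 173218923, minus) and Tlr3 on chromosome 8 (45395665 to 45411080, minus). Dhx58 (100694884 to 100704271, minus) and Trim25 (88999376 to 89020293, plus) lie on chromosome 11, Eif2ak2 on chromosome 17 (78852564 to 78882573, minus), Tbk1 on chromosome 10 (121546455 to 121586787, minus) and Adar on chromosome 3 (89715022 to 89753446, plus).

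The members' profiles over the 9 libraries fell into patterns, given here as Pearson's r of log2 CPM with no test, since the libraries form 3 groups. Ddx58 and Ifih1 had an r of 0.99, as had Ifih1 and Adar, and Tlr3 and Zbp1 one of 0.96, while Mavs and Eif2ak2 ran opposite (-0.86), as did Tbk1 and Tlr3 (-0.89). Among all protein-coding genes tested, those most like Ddx58 were Oas2 (0.997), Helz2 and Ifi44, and those most like Ifih1 were Oas1a (0.995), Irgm1 and Ptprt. For Dhx58 they were Car6 (0.986), Isg15 and Opa1, for Zbp1 Col8a2 (0.996), Celf2 and Gbp7, and for Adar Tor3a (0.996), Gramd1b and Porcn. Tlr3 was closest to Slc12a7 (0.999), Plod3 and Pigu, Eif2ak2 to Cacfd1 (0.999), Tmem150a and Ubr2, and Trim25 to Pax5 (0.990), Ppp1r10 and Pdzd7. Mavs was closest to Brap (0.996) and Prkar1a, and Tbk1 to Atad5 (0.991), Bod1l and Ncapd3.

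The counts of called genes in the lists that follow are to be read against all tested genes, of which 29.5% were higher and 31.1% lower in knockout against empty vector, 29.5% and 27.3% in rescue against knockout, and 22.4% and 25.1% in rescue against empty vector. Of 22 cofactors and regulators of the helicases 20 were tested; in rescue against knockout 4 were lower and 10 higher (median 0.19), and against empty vector 9 were lower and 3 higher (median -0.10). Ddx60, an interferon-induced helicase, was among the lower ones, with 14.2 ± 3.78 CPM for empty vector (SD, n = 3), 11.6 ± 1.57 for knockout and 1.24 ± 0.119 for rescue (-3.23 ± 0.23 against knockout, SE; edgeR adjusted p = 5.6e-09). Nlrc5, known for driving MHC class I genes, stood at -3.03 ± 0.37 in rescue against empty vector (edgeR adjusted p = 2.1e-06), and Trim65, a ligase that activates Ifih1, at -0.75 ± 0.11 against knockout (edgeR adjusted p = 1.2e-05). Prkra (PACT), a protein activator of Eif2ak2, rose by 0.63 ± 0.08 (edgeR adjusted p = 1.7e-06). In knockout 10 of these 20 were lower than in empty vector and 2 higher, among them Zc3hav1 (-0.60 ± 0.06), a zinc-finger antiviral protein, and G3bp1 (-0.50 ± 0.06), a stress granule protein.

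Downstream of Mavs and Tbk1, 20 of 20 genes were tested. In knockout against empty vector 9 were lower and 4 higher, and the smallest adjusted p-values were those of Chuk (-0.71 ± 0.07), a kinase of NF-kappa-B activation, Traf2 (-0.67 ± 0.06) and Tank (-0.67 ± 0.07). The lowest log2 change was that of Optn (-0.86 ± 0.10; edgeR adjusted p = 4.2e-06), an adaptor that binds Tbk1, named after its values were seen. In rescue against knockout 7 were higher and 3 lower, with Chuk at 0.64 ± 0.07 and Nfkb1 at -0.47 ± 0.07, and in rescue against empty vector 4 were higher and 6 lower, with Rela at -0.53 ± 0.06. Irf3, the transcription factor that Tbk1 phosphorylates, was at 22.5 ± 2.24 CPM for empty vector, 16.9 ± 2.502 for knockout and 18.3 ± 1.79 for rescue (named for its role after its values were seen), and it was lower in knockout (-0.41 ± 0.11; edgeR adjusted p = 0.0033). Interferon mRNAs themselves were nearly undetected: Ifnb1 had at most 4 counts in any library and 6 others of the 9 listed had none, with at most 2 counts for Ifna4 and 1 for Ifnk. Receptors were tested: Ifnar2 went from 56.1 ± 3.96 CPM in empty vector to 85.0 ± 2.14 in knockout and 39.8 ± 1.60 in rescue, and Ifnar1 from 84.1 ± 4.24 to 113.8 ± 8.84 and 62.7 ± 5.46, each different in all 3 comparisons (edgeR adjusted p-values from 5.9e-11 to 1e-04). The 9 tested genes of that list were 6 receptor chains and the receptor kinases Jak1, Jak2 and Tyk2. In knockout 5 of the 9 were higher, 4 receptor chains and Tyk2, and none lower; in rescue against knockout 7 were lower, the 6 receptor chains and Tyk2, and none higher. In rescue against empty vector 4 were lower and 1, Ifngr1, was higher.

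Other Toll-like receptors and their adaptors had the directions of Tlr3 where called. In knockout 8 of 11 tested genes were higher than in empty vector and none lower (median 0.74), and in rescue against knockout 8 were lower and none higher (median -0.91). Cd14, a co-receptor for bacterial lipopolysaccharide, rose from 11.9 ± 2.86 to 70.2 ± 2.70 CPM and stood at 13.8 ± 1.23 in rescue. Tlr4 rose by 0.79 ± 0.07 and Tlr5 by 0.99 ± 0.08 in knockout (edgeR adjusted p = 9.4e-09 and 1.4e-09). Unc93b1, the chaperone that carries Tlr3 to endosomes, had 42.4 ± 4.06, 71.2 ± 4.21 and 33.4 ± 2.38 CPM in empty vector, knockout and rescue. Against empty vector, 6 of the 11 were lower in rescue and none higher.

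In the sensing of cytosolic DNA, the adaptor Tmem173 (STING) had 22.3 ± 4.36 CPM for empty vector, 61.5 ± 1.01 for knockout and 25.7 ± 2.64 for rescue, so that it rose in knockout by 1.46 ± 0.11 (edgeR adjusted p = 1.6e-08) and returned in rescue to a level not detectably different from empty vector (0.21 ± 0.11; edgeR adjusted p = 0.14). Mb21d1 (cGAS), the enzyme ahead of it, never exceeded 5 counts in a library. Ifi204, an interferon-inducible DNA-binding protein, had 29.4 ± 3.36, 52.4 ± 2.21 and 16.1 ± 0.692 CPM, and Samhd1, a nucleotide phosphohydrolase, was instead highest in rescue (199.4 ± 9.59, 150.8 ± 6.46 and 246.9 ± 3.04 CPM). In all, 5 of 9 tested genes were higher and 2 lower in knockout, 3 higher and 4 lower in rescue against knockout, and 4 higher and 3 lower in rescue against empty vector.

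Among partners of Zbp1 and Eif2ak2, Ripk3, the kinase that Zbp1 recruits for necroptosis, had 19, 20 and 39 counts for empty vector, 106, 100 and 218 for knockout and 7, 2 and 0 for rescue, or 1.23 ± 0.364, 8.06 ± 1.24 and 0.120 ± 0.125 CPM. It rose in knockout by 2.71 ± 0.26 (edgeR adjusted p = 2.8e-08) and fell in rescue against knockout (-5.76 ± 0.37; edgeR adjusted p = 1.2e-10), in the same directions as Zbp1, whereas Mlkl, the effector after Ripk3, was lowest in knockout (40.9 ± 5.34, 24.2 ± 0.969 and 31.6 ± 2.88 CPM; named for its role after its values were seen). In the list of partners of double-stranded and Z-form RNA, 3 of 11 tested genes were higher and 6 lower in knockout, and 6 higher and 2 lower in rescue against knockout. Against empty vector 2 were higher and 5 lower in rescue. Eif2s1, the substrate of Eif2ak2, stood at 344.1 ± 10.8 CPM for empty vector, 181.6 ± 10.6 for knockout and 283.7 ± 13.3 for rescue, and Ppp1r15a, which reverses its phosphorylation, at 534.5 ± 50.7, 57.4 ± 2.61 and 109.7 ± 30.8. Of the 11 genes of the Eif2a kinases and the stress response, 4 were higher and 6 lower in knockout, 6 higher and 4 lower in rescue against knockout, and 2 higher and 4 lower in rescue against empty vector.

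Among genes that process mitochondrial RNA, Pnpt1, the exonuclease that degrades mitochondrial double-stranded RNA, had 99.0 ± 5.87 CPM for empty vector, 50.7 ± 2.69 for knockout and 55.8 ± 4.02 for rescue. It was therefore low in both edited lines, by 0.96 ± 0.07 log2 units in knockout (edgeR adjusted p = 7.2e-10) and by 0.83 ± 0.07 in rescue (edgeR adjusted p = 1.7e-08), while the mitochondrial share of rescue overlapped with that of empty vector. Bak1, which permeabilises the outer mitochondrial membrane, rose in knockout by 0.51 ± 0.07, and Polrmt, the mitochondrial RNA polymerase, by 0.40 ± 0.06. Fastkd2, a mitochondrial RNA-binding protein, was lower in rescue than in knockout (-0.65 ± 0.06) and empty vector (-0.77 ± 0.06). Of 17 genes, 5 were higher and 6 lower in knockout, shares near the 29.5% and 31.1% of all genes, 7 higher and 6 lower in rescue against knockout, and 4 higher and 5 lower in rescue against empty vector.

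**Figure D5:**
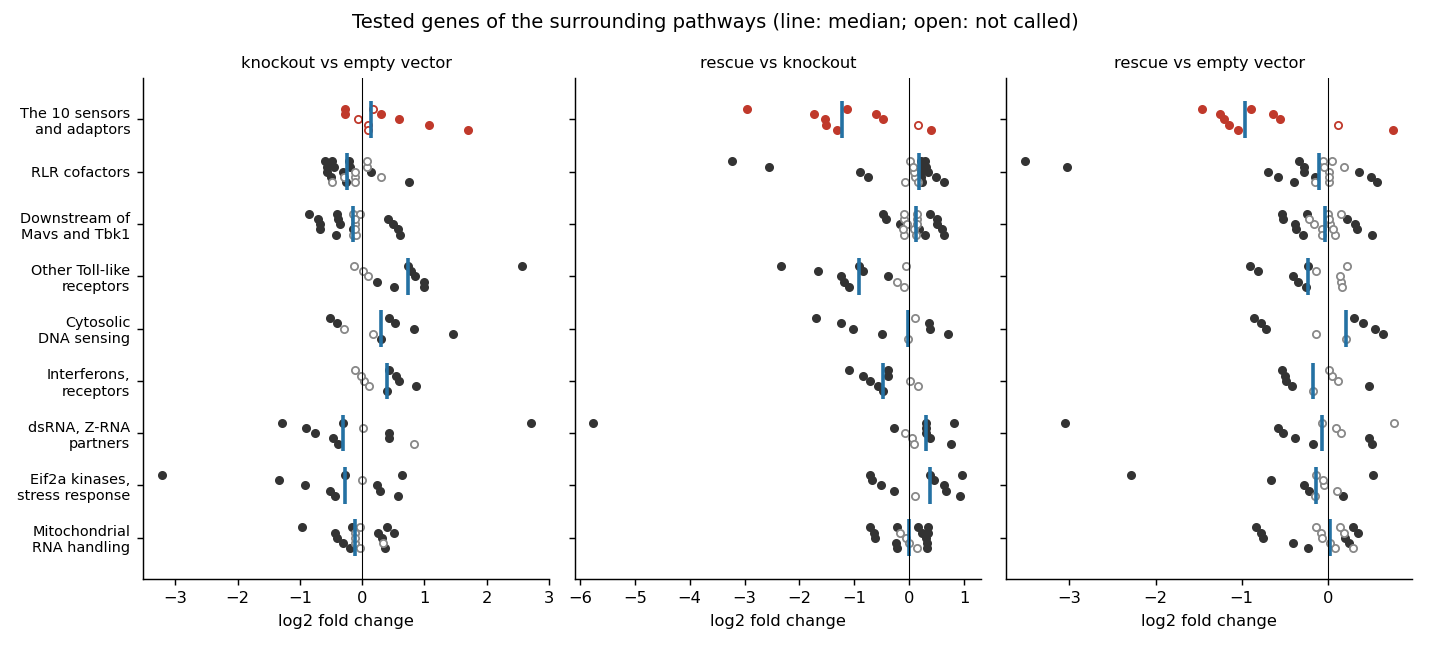
Log2 fold change of each tested gene of the 10 members (red) and of 8 lists of surrounding genes (dark), in 3 comparisons with separate x axes (blue line: median; open: not called at an edgeR adjusted p under 0.05). The members' median is -1.23 in rescue against knockout and -0.97 in rescue against empty vector, while the median of the helicase cofactors is 0.19 and -0.10.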

How the data were processed

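Messenger RNA of 9 RENCA libraries was sequenced after poly(A) selection, per the labels' protocols. Tools named in the submitters' processing notes are TopHat2, HISAT, HISAT2 and CASAVA, without roles, on mm10. How reads were counted per gene is not known here. Raw counts per gene and FPKM per library were deposited, per the file headers. The authors' own log2 fold changes and p-values are further deposited columns, from a test that is not named; their group means were not used.

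Tests on the deposited counts used edgeR 4.0.16 under R 4.3.3: filterByExpr on the groups, TMM factors, a robust quasi-likelihood model with 1 mean per group over all 9 libraries, and Benjamini-Hochberg adjustment over 13326 genes, called at an adjusted p under 0.05. CPM use TMM-scaled library sizes; SE is the log2 change divided by the root of F. The test was also run on simulated counts with the same spread for every gene and far fewer changed genes than were called here. Its error rate in these data is therefore not known. Between replicates of a group, chi-square per degree of freedom was 3.64 to 20.1, above sampling noise. Mitochondrial shares were compared by exact permutation tests. Profiles were compared on log2 CPM with a prior count of 1. Alternatives were other scalings and filters, DESeq2 1.42.0, fits of 2 groups, a replicate term, and leaving out each library. All 10 members are named; of each list, up to 3 called genes with the smallest adjusted p per comparison could be named, and Irf3, Mlkl, Optn and genes given for other comparisons or by their counts fall outside that rule. Members and lists were chosen with earlier results of these data known. One gene among those most like a member is not reported here.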

Additional observations from a re-analysis of the deposited data

How the results depend on the processing

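Of 160 values of single members under alternatives in each comparison, 157 for knockout against empty vector, 155 for rescue over knockout and 160 for rescue over empty vector kept their side of the threshold, with the same direction where called. The exceptions were Ddx58 and Trim25 in the first comparison and Mavs in the second. Scaling by library totals alone shifted the all-gene median by -0.15 in knockout against empty vector and 0.19 in rescue against knockout. The share of calls that were higher then went from 48.7% to 34.4% and from 51.9% to 69.6%. The median of the members was then -0.02 instead of 0.13 in knockout against empty vector and -1.04 instead of -1.23 in rescue against knockout. In the latter comparison 2 members were called higher instead of 1, Mavs besides Tbk1, with library totals alone, with no low-count filter and with only the 2 groups compared in the fit, where the adjusted p of Mavs was 0.00012, 0.016 and 0.038. Leaving out each library gave 1 to 2 members called higher there, with 2 when empty-vector replicate 1 or 2 was left out. The members' median in knockout against empty vector then ran from 0.06 to 0.18, lowest without empty-vector replicate 1. The 8 members called lower in rescue stayed 8 in both rescue comparisons whichever library was left out. Same-numbered libraries of different groups did not deviate together (r of -0.14 to 0.05). Whether they shared a day or batch cannot be told from these values alone. With a replicate block 7890, 7367 and 6091 genes were called in the comparisons in the order above, and no call of a member changed. Depth limits Zbp1 most, at 8 to 118 counts a library.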
